A study of Mus musculus with 4 samples.

Results

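Sphingosine-1-phosphate (S1P) receptor genes and a kinase gene that makes their ligand were followed in leukocytes of transplanted mouse lungs. The set holds 5 of the 32285 genes in the count tables, matched by gene symbol: the receptor genes S1pr1, S1pr2, S1pr4 and S1pr5, and Sphk1, which encodes sphingosine kinase 1. The rule uses gene names only and no measured value. Left lungs of B6 mice were stored for 60 min at 4 °C and 45 min at 28 °C, transplanted into B6 recipients and collected 2 h after reperfusion, and CD45+ leukocytes were sorted by origin, from the donor or the recipient. Resolvin D1 (RvD1), a lipid mediator derived from an omega-3 fatty acid, was given intravenously just before transplantation at 200 ng in 200 µL of 1% ethanol. The comparison group received vehicle. The labels' protocol has the recipient mice treated, whereas the series' design text has the grafts treated, and the sources used here do not settle which. The 4 groups join an origin with a treatment (vehicle donor and RvD1 donor, vehicle recipient and RvD1 recipient), and each has 1 single-cell library made from 2 pooled lungs. Age and sex are not given in the labels, and no genotype beyond the strain is named.

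S1P is made from sphingosine by sphingosine kinases, exported from the cell, and kept high in blood and lymph but low inside tissues. Lymphocytes follow this difference through the receptor S1P1, the product of S1pr1, when they leave lymphoid organs and tissues; the transcription factor KLF2 drives S1pr1, and the activation antigen CD69 removes S1P1 from the cell surface. S1P2 tends to hold cells in place, S1P4 is found mainly on haematopoietic cells, and S1P5 is known for the movement of natural killer (NK) cells and patrolling nonclassical monocytes. In the lung, endothelial S1P1 also helps to keep the vessel wall tight.

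The promoter sequences of the receptor genes are shown because KLF2 binds CACCC boxes and the receptor levels are set beside Klf2 further on. RefSeq promoter entries (GRCm38.p6) matched 4 of the 5 genes, S1pr2, S1pr4, S1pr5 and Sphk1. Each line gives the 250 bases before the annotated start, 5′ to 3′ on the gene's strand, with every CACCC or its reverse complement GGGTG in capitals. The windows are chr9:20976794-20977043 for S1pr2, chr10:81500138-81500387 for S1pr4 and chr9:21248444-21248693 for S1pr5, all on the minus strand.
S1pr2: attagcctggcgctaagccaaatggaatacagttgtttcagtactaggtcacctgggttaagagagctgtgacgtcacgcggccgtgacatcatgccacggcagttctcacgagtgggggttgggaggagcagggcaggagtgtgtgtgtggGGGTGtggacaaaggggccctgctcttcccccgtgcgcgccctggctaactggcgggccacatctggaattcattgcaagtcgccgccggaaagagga
S1pr4: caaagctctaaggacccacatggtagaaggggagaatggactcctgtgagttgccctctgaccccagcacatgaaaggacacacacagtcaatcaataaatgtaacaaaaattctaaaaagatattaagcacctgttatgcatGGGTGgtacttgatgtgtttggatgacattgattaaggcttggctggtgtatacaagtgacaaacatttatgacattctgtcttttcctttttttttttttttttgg
S1pr5: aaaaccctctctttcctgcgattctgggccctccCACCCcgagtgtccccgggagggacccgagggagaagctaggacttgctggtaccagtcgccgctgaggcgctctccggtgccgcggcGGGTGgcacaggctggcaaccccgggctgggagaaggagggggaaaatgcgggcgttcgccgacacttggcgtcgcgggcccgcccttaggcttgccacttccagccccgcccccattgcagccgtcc
S1pr2 held 1 match, 98 bases before the start, and S1pr4 held 1, 107 bases before it. S1pr5 held 2, at 216 and 128 bases. Of 32851 mouse promoter windows of the same length, 52.0% held at least 1 match and 21.1% at least 2, so matches of this kind are common. The FOXO1 letters TGTTTAC, or GTAAACA on the other strand, occur in 3.2% of all windows and in none of those of S1pr2, S1pr4, S1pr5 and Sphk1. Base composition differed widely: 38.8% of the S1pr4 window was G or C against 59.2% for S1pr2 and 69.2% for S1pr5.

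On GRCm38 (GENCODE M21), S1pr1 (ENSMUSG00000045092) lies at chr3:115710433-115715072 and S1pr2 (ENSMUSG00000043895) at chr9:20962361-20976781. S1pr4 (ENSMUSG00000044199) lies at chr10:81497747-81500132, S1pr5 (ENSMUSG00000045087) at chr9:21242912-21248443 and Sphk1 (ENSMUSG00000061878) at chr11:116530925-116536674. The receptor genes lie on the minus strand and Sphk1 on the plus strand. S1pr4 is a single exon block, while 1594 of the 4640 bases of S1pr1 lie outside its 2 exon blocks. S1pr5 and Sphk1 are overlapped on the other strand by the gene models Gm48303 and Gm29292. The labels and headers do not say how reads of these overlapping pairs were assigned, and this was not examined.

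Between 5009 and 7368 cells per library entered the analysis after filters and removal of 83 to 255 called doublets, with median depths of 5392 to 7917.5 UMIs per cell. Pairs of libraries shared 3 to 13 cell barcodes. Cell Ranger was at version 7.0.1 for the RvD1 and 6.1.1 for the vehicle libraries, so an effect of the version and one of the treatment cannot be told apart. By default the newer of these versions counts intronic reads and the older does not, and neither labels nor headers say whether the defaults were kept. Every RvD1 over vehicle ratio below carries this limit. Cells were grouped into classes by marker genes, without using the 5 genes or their pathway, and each class is a marker-defined likeness ("T cell-like" and so on; the suffix is left out below). Levels are CPM, the UMIs of the gene per 1000000 UMIs of the class. Where 4 values follow each other without a library name, they stand in the order donor vehicle, donor RvD1, recipient vehicle, recipient RvD1. A ratio is given where a class had at least 100 cells in both libraries and the gene had at least 50 UMIs over them. With 1 library per group, differences could not be set against replicate spread and no test was made. Every 95% interval covers counting error only, and every ratio compares libraries and not conditions.

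The 5 genes were spread over different leukocytes. Over all cells, 67.4% of 20172 S1pr1 UMIs lay in T cells and 14.7% in B cells. Of 1676 S1pr2 UMIs, 68.0% lay in neutrophils. S1pr4 was shared among lymphocytes, with 46.7% of 6066 UMIs in T cells, 22.9% in NK cells and 16.7% in B cells. S1pr5 was concentrated in nonclassical monocytes, with 67.3% of 2364 UMIs, and NK cells, with 25.3%. Sphk1 was sparse, and 35.6% of its 899 UMIs lay in classical monocytes and 35.4% in dendritic cells (DCs). The receptor gene outside the set, S1pr3, reached 196 UMIs, of which 46.4% lay in unnamed clusters.

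**Figure D1:**
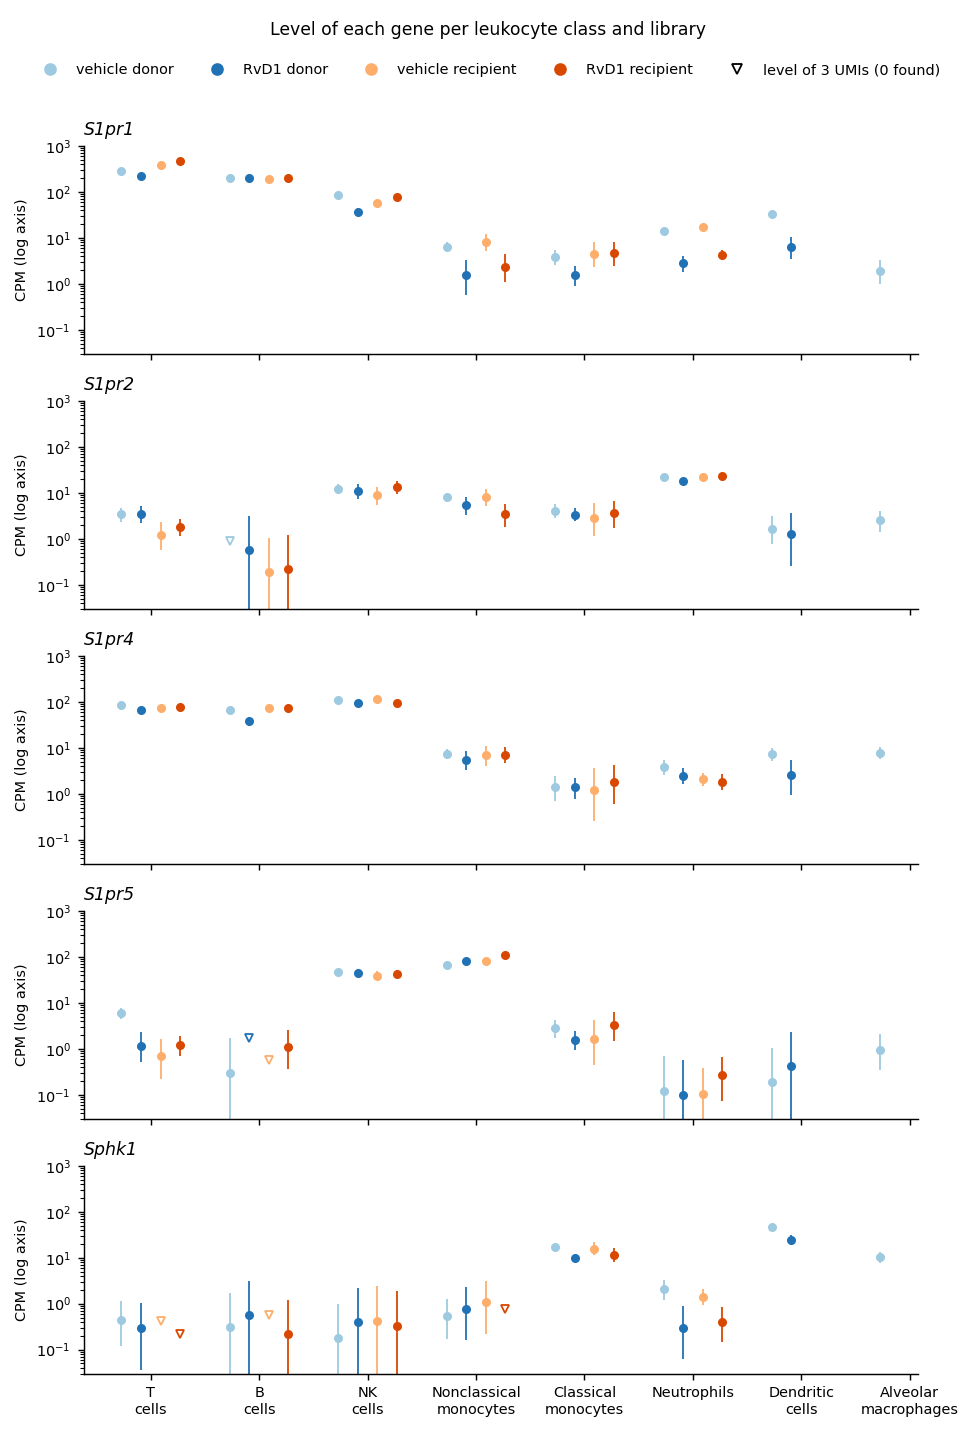
Level of each gene (CPM, log axis) in 8 leukocyte classes, for every library with at least 100 cells of the class; points are levels, bars 95% Poisson intervals and open triangles the level of 3 UMIs where 0 were found. S1pr1 was highest in T and B cells, S1pr2 in neutrophils, S1pr4 in NK, T and B cells, S1pr5 in nonclassical monocytes and NK cells, and Sphk1 in DCs and classical monocytes.

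Among the named classes of at least 100 cells, S1pr1, the receptor gene for lymphocyte egress, was highest in T cells in all 4 libraries. The unnamed cluster 17, led by endothelial and airway genes, was higher than T cells in every library except RvD1 recipient. The T cell level was 280 CPM (95% interval 269 to 291) with vehicle and 221 (210 to 233) with RvD1 among donor cells. It was 396 (382 to 411) and 473 (461 to 484) in recipient cells. The 4 intervals do not overlap, and both recipient libraries lay above both donor libraries. Of T cells thinned to 2000 UMIs, 38.4%, 27%, 50.3% and 56.1% held an S1pr1 UMI in the same order (unthinned 65.9%, 53.5%, 87.7% and 89.0%, at median depths of 7472.5 to 9388 UMIs). Alveolar macrophages of the vehicle donor library, a class not known for S1pr1, gave 0 of 223 cells thinned (95% upper bound 1.64%). Unthinned, their share was 1.34% at a median of 28936 UMIs. The RvD1 over vehicle log2 ratio was -0.34 (-0.43 to -0.25) for donor and 0.25 (0.19 to 0.32) for recipient T cells, where the median ratio of all genes was -0.11 and -0.07. Opposite signs therefore stood in the donor and recipient pairs, and the difference between them was not tested.

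T cell clusters covered a wider range of S1pr1 than the libraries did. Over all libraries the level was 572 CPM in naive-like CD4 T cells, 385 in regulatory, 365 in naive-like CD8, 206 in memory-like CD8 and 124 in gamma-delta T cells. Naive-like CD4 T cells held 512 CPM with vehicle and 501 with RvD1 among donor cells, and 526 and 616 in recipient cells. They were the highest T cell cluster in every library. The clusters also made up unequal parts of the class: naive-like CD4 cells were 77 of 810 T cells in RvD1 donor and 820 of 1808 in RvD1 recipient. Within clusters, the donor ratio was -0.03 (-0.23 to 0.16) in naive-like CD4, 0.07 (-0.13 to 0.27) in naive-like CD8 and -0.13 (-0.36 to 0.10) in regulatory T cells. These 3 intervals include 0. It was -0.25 (-0.44 to -0.06) in memory-like CD8 and -0.52 (-0.81 to -0.23) in gamma-delta T cells. In recipient cells it was 0.23 (0.14 to 0.32) in naive-like CD4 and 0.30 (0.19 to 0.41) in naive-like CD8 cells, and -0.01 and -0.07 in memory-like CD8 and regulatory cells, whose intervals include 0.

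The recipient over donor ratio of S1pr1 in T cells was 0.50 (0.42 to 0.58) with vehicle and 1.09 (1.01 to 1.18) with RvD1. Within naive-like CD4 cells it was 0.04 (-0.09 to 0.17) and 0.30 (0.13 to 0.47), and within naive-like CD8 cells -0.08 (-0.22 to 0.06) and 0.14 (-0.03 to 0.32). Memory-like CD8 cells gave 0.49 (0.29 to 0.70) and 0.74 (0.53 to 0.95), and regulatory T cells 0.52 (0.27 to 0.76) and 0.58 (0.38 to 0.77). Gamma-delta T cells gave 0.95 (0.52 to 1.36) with RvD1, from 53 recipient and 219 donor cells. With vehicle they had 10 recipient cells, too few for a ratio. Within the naive-like clusters the ratios were thus near 0 or small, and only the naive-like CD4 interval with RvD1 excludes 0. Memory-like CD8 and regulatory T cells of recipient origin carried more S1pr1 in both treatments.

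**Figure D2:**
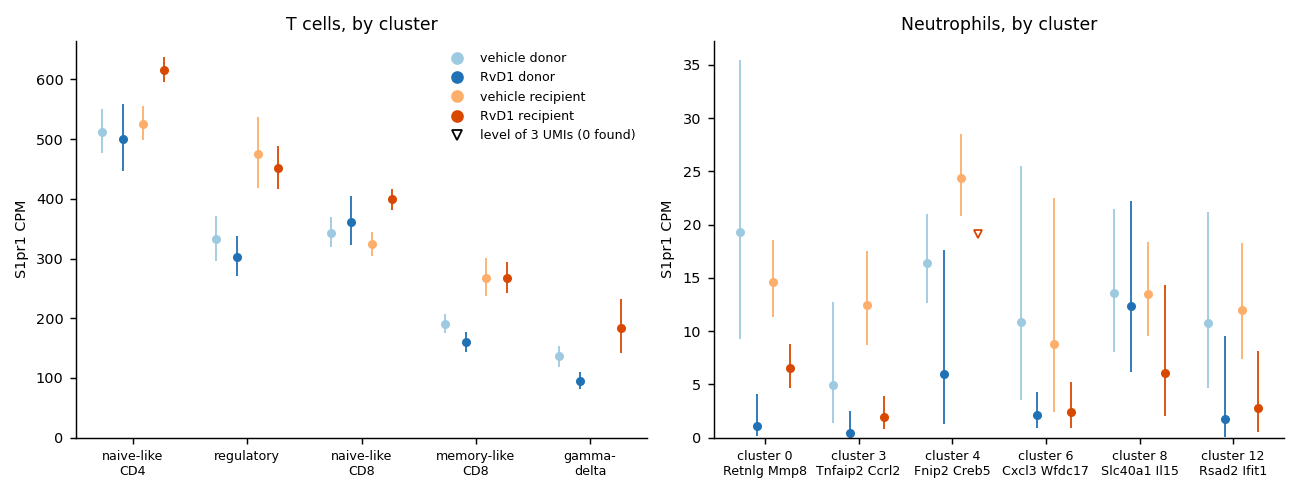
S1pr1 level (CPM, linear axis) by T cell cluster and in neutrophil clusters 0, 3, 4, 6, 8 and 12, for each library with at least 20 cells. The small neutrophil cluster 23 is not drawn. Points are levels, bars 95% Poisson intervals and the open triangle the level of 3 UMIs where 0 were found. Naive-like CD4 T cells were the highest T cell cluster in every library, and in neutrophils each RvD1 point lay below the vehicle point of the same origin; the triangle stands for 31 cells of cluster 4.

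S1pr1 was also set against single marker genes of T cells (these genes, and those used in the same way below, were chosen after the data had been seen). In donor T cells with a Klf2 UMI, S1pr1 was at 349 CPM (vehicle) and 318 (RvD1), and in those without one at 134 and 94.6. In recipient T cells it was at 402 and 489 CPM with a Klf2 UMI and at 349 and 316 without. The log2 differences were 1.38, 1.75, 0.20 and 0.63, so cells with Klf2 were higher in all 4 libraries and most clearly in donor cells. Splits on Ccr7, the lymph node homing receptor gene, gave 1.12, 1.24, 0.12 and 0.11. Cells with a Cd69 UMI carried less S1pr1 in all 4 libraries, at 223 against 300 CPM, 178 against 233, 306 against 430 and 372 against 499 (log2 differences of -0.43, -0.39, -0.49 and -0.42). Cells with a UMI of a split gene were deeper, with medians of 8072 to 9850 UMIs with Cd69 and 7383 to 9278 without. The splits pooled the T cell clusters, which differ in S1pr1 level and in their share of each library. The parts of depth and of cluster make-up in these differences were not tested.

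In B cells S1pr1 was at nearly the same level in every library: 203, 200, 193 and 206 CPM. The RvD1 over vehicle log2 ratio was -0.02 (-0.21 to 0.17) for donor and 0.09 (-0.04 to 0.22) for recipient B cells. Both intervals are narrow and include 0, so no difference was detectable at this depth. B cells with a Klf2 UMI carried more S1pr1 in all 4 libraries, by 0.73, 0.43, 0.26 and 0.26 on the log2 scale. With Cd69 the difference was -0.08, -0.60, 0.05 and -0.04, and the RvD1 donor interval alone excludes 0 (-0.98 to -0.24).

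NK cells held less S1pr1 than T or B cells in every library, and their RvD1 over vehicle ratios also had opposite signs. The level was 86.7 CPM (79.1 to 94.7) with vehicle and 37.3 (30.2 to 45.6) with RvD1 among donor cells, and 56.7 (47.5 to 67.2) and 76.8 (67.2 to 87.4) in recipient cells. RvD1 donor was the lowest and overlapped none of the others. The ratio was -1.22 (-1.55 to -0.90) in donor cells, where 2.09% of 9130 genes were at least 2-fold lower, and 0.44 (0.12 to 0.76) in recipient cells. The difference between the 2 ratios was not tested. Cluster 24, with 75 of its 97 cells in the RvD1 recipient library, also carried the T cell gene Cd3e at 429 CPM, and without it the ratios were -1.20 and 0.43. The 10 T cell markers summed to 755, 640, 721 and 1010 CPM in NK cells, lower with RvD1 in donor and higher in recipient cells, as S1pr1 was, and none was at 0. In the ratio found in T cells they would carry 62.6, 35.7, 92.5 and 138 CPM of S1pr1, near or above the measured level in the last 3 libraries. Trbc1, Trbc2 and Cd247, which encodes a signalling chain that NK receptors also use, made up most of the sum, at 249, 141 and 255 CPM in vehicle donor. Cd3e, a defining T cell gene, was at 1.62, 2.38, 0.858 and 2.61 CPM in cluster 2, which held 2080 of the NK cells, and would carry 1.12, 1.15, 1.08 and 3.54 CPM of S1pr1. By Trac, the marker of the T cell receptor alpha chain, the figures were 16, 8.14, 38.9 and 26.7 CPM. The S1pr1 level in cluster 2 was 86.6, 37.6, 56.6 and 76.3 CPM. Endothelial markers would carry 9.22, 5.67, 8.54 and 6.57 CPM in NK cells. The part of RNA from other cells was not tested further. When called doublets were kept, the donor ratio was -0.73 (-0.99 to -0.47).

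S1pr1 and S1pr5 differed in opposite directions with Cd27 in NK cells. Cd27 marks less mature and Klrg1 more mature NK cells. In NK cells with a Cd27 UMI S1pr5 was at 27.3, 24.4, 22.9 and 27.6 CPM, and in those without one at 57.7, 53.6, 46.8 and 50.2 CPM. The log2 differences of -1.08, -1.14, -1.03 and -0.87 have intervals that all exclude 0. With a Klrg1 UMI S1pr5 was higher by 0.63, 0.73, 0.58 and 0.69, and the vehicle recipient interval alone includes 0. S1pr5 was also higher in NK cells with a UMI of Zeb2, a factor of late NK maturation, by 0.87, 0.54, 1.43 and 0.95, and here the RvD1 donor interval alone includes 0. S1pr1 ran the other way, at 135, 44.8, 103 and 98.5 CPM with a Cd27 UMI and 59.9, 34.3, 35.6 and 65.8 CPM without. The RvD1 donor difference of 0.38 (-0.27 to 1.02) is the only one of the 4 whose interval includes 0. NK cells with a Cd27 UMI were deeper, with a median of 7703 against 6310 UMIs in vehicle donor, and the part of depth was not tested. All these splits covered the whole NK class, with cluster 24 and its T cell genes included. The part of T cell transcripts in them was not tested either. With Klrg1, S1pr1 was lower in vehicle donor and RvD1 recipient cells (-1.26 and -1.02) and near equal in the other libraries (-0.08 and 0.04).

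**Figure D3:**
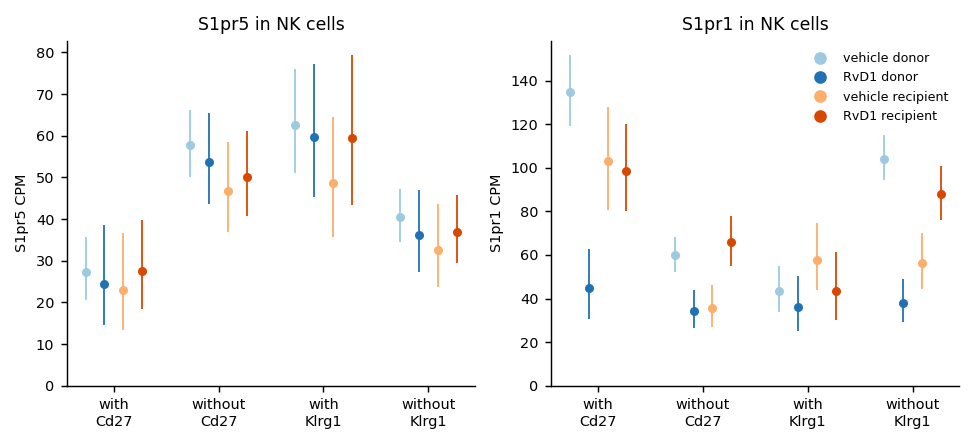
S1pr5 and S1pr1 levels (CPM, linear axis) in NK cells with and without a UMI of Cd27 or Klrg1, by library; points are levels and bars 95% Poisson intervals. S1pr5 was lower in NK cells with Cd27 in all 4 libraries (22.9 to 27.6 CPM against 46.8 to 57.7), and S1pr1 was higher there (44.8 to 135 against 34.3 to 65.8).

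In neutrophils, which hold little S1pr1, the gene was lower in both RvD1 libraries. The level was 14 CPM (11.5 to 16.8, 114 UMIs) with vehicle and 2.80 (1.86 to 4.05, 28 UMIs) with RvD1 among donor cells, and 17 (15.2 to 19.0, 327 UMIs) and 4.27 (3.29 to 5.44, 65 UMIs) in recipient cells. Both vehicle libraries lay above both RvD1 libraries with no overlap of intervals. The log2 ratio was -2.32 (-2.97 to -1.71) for donor and -2.0 (-2.40 to -1.61) for recipient neutrophils. Of all described genes in these comparisons, 7.64% and 6.86% were at least 2-fold lower, and 4.34% of 8033 genes were so in both, so S1pr1 was among a sizeable group. The share of neutrophils with an S1pr1 UMI after thinning to 2000 UMIs was 2.37%, 0.54%, 3.22% and 0.71% (unthinned 6.58%, 1.11%, 7.37% and 1.84%, at median depths of 4876 to 5344 UMIs). In classical monocytes, at medians of 11890 to 15430 UMIs, the thinned share was 1.18%, 0.277%, 0% (0 of 163 cells, which allows up to 1.84%) and 0.87%. The RvD1 neutrophil shares thus lay within the range of the monocyte shares, and the vehicle shares lay above it.

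Neutrophil clusters were unequally filled by treatment. Cluster 4, led by Fnip2 and Creb5, held 649 and 1113 vehicle donor and recipient cells but 91 and 31 RvD1 cells, and had the highest S1pr1 at 20.5 CPM. Cluster 6, led by Cxcl3 and Wfdc17, held 713 and 521 RvD1 cells against 91 and 95 vehicle cells, and had the lowest of the large clusters at 3.23 CPM. The level was lower in the RvD1 library in 7 of 7 clusters in donor and 7 of 7 in recipient cells, but many of these rest on few UMIs. In donor cells only clusters 4 and 8 had enough UMIs (20 over the pair) for a ratio, and both intervals include 0 (-1.45, -3.77 to 0.16 in cluster 4). In cluster 0 (Retnlg, Mmp8) the recipient values were 14.6 and 6.54 CPM (log2 ratio -1.16, -1.75 to -0.58), and in cluster 3 (Tnfaip2, Ccrl2) 12.5 and 1.96 CPM (-2.67, -3.99 to -1.53). Cluster 8 (Slc40a1, Il15) gave 13.6 and 12.4 CPM in donor cells (-0.13, -1.36 to 1.03) and 13.5 and 6.12 in recipient cells (-1.14, -2.84 to 0.20), and no difference was detectable in either. Without cluster 4 the ratios of the class were -2.17 and -1.61.

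T cell markers were measured beside S1pr1 in neutrophils, since free RNA gives UMIs in cells that do not express a gene. The 10 T cell markers summed to 27.4, 18.2, 19.3 and 21.5 CPM in neutrophils of the 4 libraries, with Bcl11b at 0 in vehicle donor and none at 0 elsewhere. If all those UMIs came from T cells of the library, they would carry 2.27, 1.01, 2.48 and 2.94 CPM of S1pr1. The vehicle levels of 14 and 17 CPM lie well above that, and the RvD1 levels of 2.80 and 4.27 CPM lie closer to it. B cell markers would add 0.53, 0.84, 0.853 and 0.936 CPM and endothelial markers 2.63, 1.44, 1.76 and 1.32 CPM, and with these the RvD1 levels are no higher than what such RNA could carry. The fold between treatments is therefore uncertain in size. In neutrophils with no T cell marker UMI, S1pr1 was at 13.7, 2.07, 17.1 and 3.87 CPM. With B cell and endothelial markers also excluded, the ratios were -2.58 (-3.43 to -1.80) and -2.06 (-2.54 to -1.60).

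Nonclassical monocytes and DCs held low S1pr1 that was also lower in the RvD1 donor library. In nonclassical monocytes it was at 6.42 CPM with vehicle and 1.56 with RvD1 among donor cells, and 8.26 and 2.36 in recipient cells, from 60, 6, 23 and 9 UMIs. The donor ratio was -2.04 (-3.55 to -0.84), where 4.83% of genes were at least 2-fold lower, and the recipient pair, under the minimum of 50 UMIs, was at -1.81 (-3.11 to -0.65). Of the 60 vehicle donor UMIs 43 lay in cluster 15, which held 223 vehicle and 72 RvD1 donor cells and gave a ratio of -3.47 (-8.81 to -0.92). In cluster 10 the donor ratio was -0.97 (-2.76 to 0.53), from 17 and 5 UMIs, so the difference was not detectable there. Endothelial markers in this class summed to 64.5, 43.1, 55.3 and 60.2 CPM, which would carry 7.99, 4.17, 6.26 and 6.33 CPM of S1pr1 if they came from the unnamed cluster led by endothelial genes. The measured levels are near or below these values, and the part of such RNA was not tested further. In DCs S1pr1 was at 32.8 CPM (177 UMIs) in vehicle donor and 6.30 (15 UMIs) in RvD1 donor cells, a ratio of -2.38 (-3.25 to -1.62) beside 4.07% of genes at least 2-fold lower. The T cell markers summed to 190 and 94.5 CPM there. In the 62 vehicle donor DCs with a T cell marker UMI S1pr1 was at 94.3 CPM, and in the 220 without one at 8.28; in RvD1 donor DCs it was at 24.9 in 24 cells and 2.06 in 131. Most of the S1pr1 UMIs in DCs therefore lay in the minority of cells that also held T cell transcripts.

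Other cells gave S1pr1 values at the extremes. Plasmacytoid DCs had 0 S1pr1 UMIs in 39, 30, 13 and 12 cells, which allows up to 4.32 CPM in vehicle donor cells. Classical monocytes were at 1.55 to 4.70 CPM. Basophils had 18, 4 and 17 UMIs in 69, 84 and 67 cells of vehicle donor, RvD1 donor and RvD1 recipient, and group 2 innate lymphoid cells had 3 and 9 UMIs in 73 and 86 donor cells. The unnamed cluster 17, led by endothelial and airway genes such as Cldn5, Cdh5 and Scgb1a1, carried S1pr1 at 399 CPM. An unnamed cluster led by cell cycle genes carried S1pr1 at 157 CPM.

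S1pr2, the receptor gene linked to cell retention, was highest in neutrophils in every library and differed little between them. Its level was 22.0 CPM (18.9 to 25.4) with vehicle and 18.0 (15.5 to 20.9) with RvD1 in donor neutrophils, and 21.8 (19.8 to 24) and 23.7 (21.3 to 26.3) in recipient neutrophils. Only the intervals of RvD1 donor and RvD1 recipient do not overlap. The RvD1 over vehicle ratio was -0.29 (-0.59 to 0.02) for donor and 0.12 (-0.09 to 0.33) for recipient cells. Neutrophil S1pr2 was thus nearly level in the same libraries in which neutrophil S1pr1 differed by 4.99-fold and 3.99-fold as measured. After thinning, 3.94% to 4.63% of neutrophils held an S1pr2 UMI in the 4 libraries (unthinned 7.48% to 10.2%). B cells, at medians of 4638 to 6577 UMIs, gave 0 of 246 to 904 cells in each, which allows up to 1.22% in the smallest.

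Within neutrophils S1pr2 was at 33.1 CPM in cluster 8, 25.0 in cluster 4, 22.0 in cluster 3, 20.8 in cluster 0, 18.5 in the interferon-induced cluster 12 (Rsad2, Ifit1) and 12.9 in cluster 6. Cluster 6, filled mostly by RvD1 cells, was the lowest of these, as it was for S1pr1. Inside clusters the RvD1 library was the lower one in only 1 of 7 in donor and 2 of 7 in recipient cells. In cluster 3 of recipient origin it was higher, at 28.2 against 15.4 CPM (log2 ratio 0.87, 0.35 to 1.42). Without cluster 4 the donor class ratio of S1pr2 was 0.05 (-0.36 to 0.47). Recipient neutrophils held more S1pr2 than donor neutrophils with RvD1 (0.40, 0.13 to 0.66) and a like amount with vehicle (-0.01, -0.27 to 0.25).

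Outside neutrophils S1pr2 was low. NK cells followed at 12.3, 11, 8.96 and 13.3 CPM, nonclassical monocytes at 8.13, 5.45, 8.26 and 3.4, classical monocytes at 2.90 to 4.06 and T cells at 1.23 to 3.51. B cells gave 0, 1, 1 and 1 UMIs in 449, 251, 864 and 921 cells of the 4 libraries. Neutrophils and NK cells did not overlap with any other class in their ranges over libraries, while nonclassical and classical monocytes overlapped. In nonclassical monocytes S1pr2 was at 10.7 CPM in cluster 15, which also carried neutrophil transcripts, and at 3.60 in cluster 10.

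Among named classes of at least 100 cells, S1pr4 was highest in NK cells, then T cells and B cells. Its ranges over libraries overlapped in T and B cells. In NK cells its level was 108 CPM with vehicle and 92.3 with RvD1 among donor cells, and 113 and 92.4 in recipient cells. Both RvD1 libraries lay somewhat below both vehicle libraries, with ratios of -0.23 (-0.46 to -0.01) and -0.30 (-0.54 to -0.05). In T cells the levels were 84.9, 67.1, 73.5 and 75.8 CPM, with ratios of -0.34 (-0.51 to -0.17) for donor and 0.05 (-0.11 to 0.20) for recipient cells. In B cells they were 67.9 (59.3 to 77.4), 37.8 (29.2 to 48.0), 74.8 (67.6 to 82.6) and 73.9 (66.2 to 82.3) CPM. RvD1 donor B cells were the lowest and overlapped none of the others, with a donor ratio of -0.85 (-1.27 to -0.44) and a recipient ratio of -0.02 (-0.23 to 0.20). The median ratio of all genes in donor B cells was -0.21. B cell S1pr1 did not share this difference.

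After thinning to 2000 UMIs, 16.8% to 20.1% of NK cells, 10.7% to 17.7% of T cells and 8.94% to 14.6% of B cells held an S1pr4 UMI, against 0% to 0.87% of classical monocytes. Unthinned, the shares were 34.3% to 49.0%, 36.4% to 49.2%, 21.9% to 33.8% and 1.83% to 2.15%. Among T cell clusters, regulatory T cells were at 105 CPM, memory-like CD8 at 97.3, naive-like CD8 at 68.7, naive-like CD4 at 62.7 and gamma-delta T cells at 59.6. The order differs from that of S1pr1, where naive-like CD4 cells came first and memory-like CD8 cells next to last. In regulatory T cells the RvD1 over vehicle ratio of S1pr4 was -0.64 (-1.08 to -0.21) in donor cells and 0.60 (0.13 to 1.10) in recipient cells. Gamma-delta T cells gave 61.1 and 36.2 CPM in vehicle and RvD1 donor cells (-0.76, -1.22 to -0.30) and 154 CPM in 53 RvD1 recipient cells. T cells with a Klf2 UMI were higher in S1pr4 by 0.67, 1.12, 0.19 and 0.31, and those with a Cd69 UMI lower by log2 differences of -0.44, -0.54, -0.17 and -0.36. The directions match those of S1pr1, but 2 of the 4 Klf2 and 1 of the 4 Cd69 intervals include 0. Here too the T cell clusters were pooled, and the part of cluster make-up was not tested.

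Small classes also held S1pr4. Plasmacytoid DCs, which had 0 S1pr1 UMIs, had 59, 17, 11 and 9 S1pr4 UMIs in 39, 30, 13 and 12 cells (85.0, 39.2, 70.2 and 61.2 CPM). Basophils were at 50.4, 56.9 and 39.0 CPM in vehicle donor, RvD1 donor and RvD1 recipient cells. Alveolar macrophages were at 7.68 CPM in vehicle donor and nonclassical monocytes at 5.45 to 7.27 in the 4 libraries. Neutrophils were at 3.8, 2.50, 2.08 and 1.84 CPM, and 21 of the 31 vehicle donor UMIs lay in the 15 cells of cluster 27, led by the granule genes Ngp, Camp and Ltf of immature neutrophils. The vehicle recipient library had no cell of that cluster. The recipient over donor ratio with vehicle, -0.87 (-1.58 to -0.14), was 0.70 (-0.32 to 1.87) under a stricter cell filter, in the opposite direction, and the part of those cells was not tested.

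S1pr5 was highest in nonclassical monocytes and NK cells and low in the other classes, where memory-like CD8 T cells reached 17.9 CPM in vehicle donor. In nonclassical monocytes its level was 67.6 CPM (62.4 to 73.1) with vehicle and 80.7 (72.0 to 90.2) with RvD1 among donor cells, and 79.4 (69.3 to 90.6) and 112 (101 to 123) in recipient cells. RvD1 recipient cells were the highest and overlapped none of the others. The RvD1 over vehicle ratio was 0.26 (0.06 to 0.45) for donor and 0.49 (0.26 to 0.73) for recipient cells, and the recipient over donor ratio was 0.23 (0.01 to 0.46) with vehicle and 0.47 (0.26 to 0.69) with RvD1. The class joins cluster 10, at 94.8 CPM, and cluster 15, at 61.8 CPM. Cluster 15 held 98 of 202 cells in vehicle recipient but 63 of 389 in RvD1 recipient. Without it the treatment ratios were 0.31 (0.06 to 0.55) and 0.09 (-0.22 to 0.41), and the recipient over donor ratio with vehicle was 0.64. The recipient difference between treatments was thus not detectable within cluster 10.

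In NK cells S1pr5 was at 46.8, 45.2, 39.2 and 42.6 CPM, with ratios of -0.05 (-0.38 to 0.27) for donor and 0.12 (-0.28 to 0.52) for recipient cells. Both intervals include 0, and the donor NK ratio of S1pr1, -1.22, lies outside the S1pr5 interval of the same cells. After thinning, 13.4% to 20.6% of nonclassical monocytes and 7.93% to 11.5% of NK cells held an S1pr5 UMI, and at most 0.101% of neutrophils did. Unthinned, the shares were 49.7% to 60.4%, 17.4% to 25.1% and at most 0.132%, at median depths of 8989 to 13728, 4563 to 6665 and 4876 to 5344 UMIs. Neutrophils had 1, 1, 2 and 4 S1pr5 UMIs in all. Classical monocytes were at 1.55 to 3.25 CPM.

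T cells gave a low S1pr5 signal that came almost wholly from memory-like CD8 cells. The level in T cells was 5.91 CPM (54 UMIs) with vehicle and 1.17 (8) with RvD1 among donor cells, and 0.684 (5) and 1.21 (17) in recipient cells. In memory-like CD8 cells it was 17.9, 3.32, 3.70 and 10.2 CPM, from 53, 8, 4 and 15 UMIs. Vehicle donor cells stood above RvD1 donor and vehicle recipient cells, with a donor treatment ratio of -2.43 (-3.71 to -1.35) in that cluster and -2.34 (-3.62 to -1.26) over T cells, where 2.31% of 10305 genes were at least 2-fold lower. Regulatory and gamma-delta T cells had 0 S1pr5 UMIs in 477 and 444 cells, and the naive-like clusters had 2 each.

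Among named classes of at least 100 cells, Sphk1, the kinase gene, was highest in DCs of the donor libraries, followed by classical monocytes. In DCs its level was 46.3 CPM (40.7 to 52.4) in vehicle donor and 24.4 (18.5 to 31.5) in RvD1 donor cells, and recipient DCs had 5 UMIs in each library. In classical monocytes it was 17.3 (14.5 to 20.4), 9.84 (8.11 to 11.8), 15.8 (11.2 to 21.6) and 11.6 (7.91 to 16.3) CPM. The RvD1 donor library was the lower one in both classes, with ratios of -0.93 (-1.36 to -0.51) in DCs and -0.81 (-1.18 to -0.44) in classical monocytes, and the donor intervals do not overlap. In recipient classical monocytes the ratio was -0.45 (-1.17 to 0.27), and 70 UMIs over both libraries left it undecided. Of donor genes, 4.07% in DCs and 3.36% in classical monocytes were at least 2-fold lower, a size that Sphk1 did not reach. As a mean over cells Sphk1 was past it, at -1.22 in DCs and -1.03 in classical monocytes, and with DCs gated by markers it was -0.37 (-0.81 to 0.07), an interval that includes 0.

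Alveolar macrophages of the vehicle donor library held Sphk1 at 10.2 CPM (65 UMIs), and the 41 cells of RvD1 donor had 0 UMIs, at a median of 3159 against 28936 UMIs per cell. That allows up to 8.25 CPM at 3 counts and 10.1 at the 95% Poisson bound, so no difference was detectable at this depth. In neutrophils Sphk1 was at 2.09, 0.30, 1.41 and 0.394 CPM from 17, 3, 27 and 6 UMIs. Cluster 4 held 15 of the 17 vehicle donor and 20 of the 27 vehicle recipient UMIs, and cluster 4 was also the one with few RvD1 cells. T, B and NK cells had at most 4 Sphk1 UMIs in any library, and nonclassical monocytes were at 0 to 1.08 CPM. The unnamed endothelial-gene cluster 17 carried Sphk1 at 17, 49.3, 37.5 and 32.3 CPM in the 4 libraries. After thinning, 8.16% and 5.41% of vehicle and RvD1 donor DCs held a Sphk1 UMI, and 1.23% to 2.75% of classical monocytes did, against 0 of 786 to 1800 T cells in each library. Unthinned, the shares were 35.8% and 19.4% in donor DCs, 9.44% to 18.3% in classical monocytes and at most 0.322% in T cells.

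S1pr1 made up most of the 2-fold differences between RvD1 and vehicle libraries. Of 21 described gene and class pairs of donor origin, 5 were at least 2-fold lower in the RvD1 library and 0 were at least 2-fold higher. The 5 were S1pr1 in neutrophils, nonclassical monocytes, DCs and NK cells, and S1pr5 in T cells. Of 13 described pairs of recipient origin, 1 was at least 2-fold lower, S1pr1 in neutrophils, and 0 were higher. Over the 13 pairs described in both origins, 2 donor pairs and 1 recipient pair were at least 2-fold lower. S1pr1 in DCs, S1pr5 in T cells and S1pr1 in nonclassical monocytes had no described recipient ratio, so the counts of 21 and 13 pairs do not compare the origins. Of all described genes, 7.64% of donor and 6.86% of recipient neutrophil genes were at least 2-fold lower, and 4.83% and 5.36% of nonclassical and 3.36% and 2.47% of classical monocyte genes. The same shares were 4.07% and 1.19% in B cells, 2.31% and 1.24% in T cells, 2.09% and 0.995% in NK cells and 4.07% in donor DCs. At least 2-fold higher were 2.43% and 3.13% of neutrophil, 2.85% and 1.71% of classical monocyte, 1.57% and 2.36% of nonclassical monocyte, 0.884% and 0.929% of B cell, 1.55% and 1.61% of T cell, 1.18% and 1.07% of NK cell and 1.28% of donor DC genes. Of the 5 donor pairs, 4 are 1 gene in different classes. In vehicle donor DCs, 145 of the 177 S1pr1 UMIs lay in cells that also held T cell transcripts. In vehicle donor nonclassical monocytes the S1pr1 level of 6.42 CPM lay below the 7.99 CPM that endothelial RNA could carry. The part of RNA from other cells in these pairs was not tested. The intervals of 11 donor pairs lay below 0, 1 lay above it and 9 included it. In recipient cells 2 lay below, 3 above and 8 included 0. The share of all genes whose interval excludes 0 was not counted, so these counts have no background beside them. The median ratio of all genes was itself below 0 in most donor classes, down to -0.21 in B cells. With a minimum of 20 UMIs the counts of 2-fold lower pairs were 8 and 4, and with a minimum of 200 UMIs 1 donor pair was left.

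**Figure D4:**
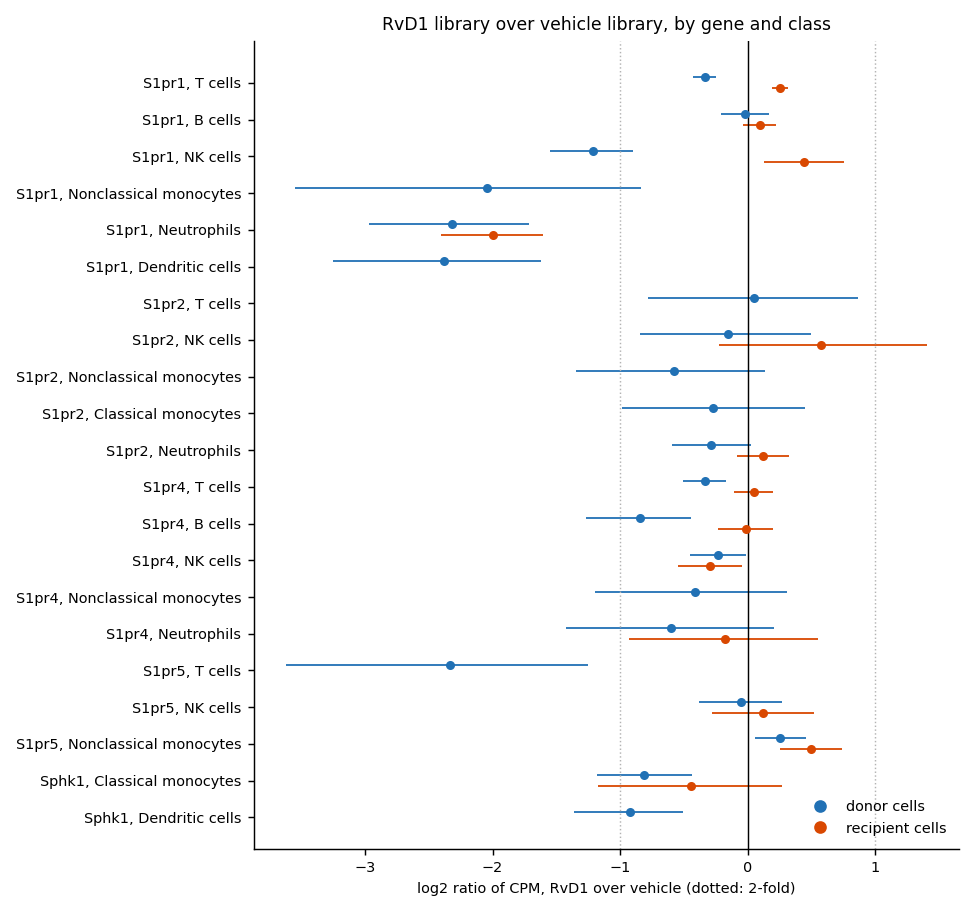
RvD1 over vehicle ratio (log2, horizontal axis) for every gene and class with at least 50 UMIs over the pair of libraries, donor pairs in blue and recipient pairs in orange; bars are 95% intervals of counting error and dotted lines mark 2-fold. S1pr1 in neutrophils lay beyond the lower 2-fold line in both origins (-2.32 and -2.0), and no pair lay beyond the upper line.

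In the RvD1 libraries, recipient T and NK cells held more S1pr1 than donor cells. Of 13 described pairs with RvD1, 2 were at least 2-fold higher in recipient cells, S1pr1 in T cells (1.09) and in NK cells (1.04, 0.69 to 1.40). At least 2-fold higher there were 1.59% of neutrophil, 0.993% of classical monocyte, 0.557% of nonclassical monocyte, 1.73% of B cell, 2.51% of T cell and 0.46% of NK cell genes. With vehicle, NK cell S1pr1 was lower in recipient cells (-0.61, -0.90 to -0.33), so the order of donor and recipient NK cells was opposite in the 2 treatments. S1pr4 in B cells was 0.97 (0.58 to 1.37) with RvD1 and 0.14 (-0.10 to 0.38) with vehicle, and B cell S1pr1 was 0.04 and -0.07 with intervals that include 0. Of 17 described pairs with vehicle, 1 was at least 2-fold lower in recipient cells, S1pr5 in T cells (-3.11, -4.79 to -1.80), and at least 2-fold lower there were 3.3% of neutrophil, 2.7% of classical monocyte, 2.21% of nonclassical monocyte, 1.13% of B cell, 8.27% of T cell and 0.948% of NK cell genes. These contrasts use the same 4 libraries as the treatment ratios.

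The wider S1P pathway was counted over 42 genes, the 5 included: receptors, kinases, breakdown enzymes, exporters, the enzymes that supply ceramide and sphingosine, and G proteins with their partners. In donor neutrophils 28 were described, of which none passed 2-fold upward and 2 passed it downward in the RvD1 library, S1pr1 and Gnaq, with a median log2 ratio of 0.04 beside 0.01 for all genes. In recipient neutrophils 29 were described and the 2 lower genes had the same names. Of all genes 7.64% and 6.86% were as much lower, so these counts are near the background. Gnaq, the G protein subunit that several S1P receptors can use, was at 839, 347, 746 and 307 CPM in neutrophils of the 4 libraries. Its ratios were -1.28 (-1.33 to -1.22) and -1.28 (-1.33 to -1.24), and over all 13 treatment comparisons of a class Gnaq ranged from -1.28 to -0.14. Sgpl1, the lyase that breaks S1P down, was also the lower one in the RvD1 library in all 13, from -0.76 to -0.11. In donor B cells the intervals of both genes include 0. Both genes were named for the size of their ratios. The median ratio of all genes was also below 0 in most of the 13 comparisons, down to -0.21 in donor B cells. The share of all genes that were lower in all 13 was not counted.

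In the other classes the counts were 0 to 2 genes. Nonclassical monocytes of donor origin had 0 higher and 2 lower of 32 described genes, S1pr1 and Gnaq, and those of recipient origin 0 and 1 of 26, Gnaq, where 4.83% and 5.36% of all genes were lower. Donor DCs had 0 higher and 1 lower of 28, S1pr1 (4.07% of all genes), and donor T cells 0 and 1 of 33, S1pr5 (2.31%). Donor NK cells, where 2.09% of all genes were lower, had 0 higher and 2 lower of 33, S1pr1 and Sphk2, the gene of the other sphingosine kinase, at 13.3 CPM in vehicle and 6.28 in RvD1 cells (-1.09, -1.97 to -0.29). Donor B cells, with 4.07% of all genes lower, had 1 lower of 27, Spns2, an S1P exporter gene, at 21.9 and 8.01 CPM (-1.45, -2.39 to -0.61), and recipient B cells, with 1.19%, had 2 lower of 32, the ceramide synthase gene Cers6 (-1.15, -1.80 to -0.54) and the beta-arrestin gene Arrb2 (-1.34, -2.29 to -0.47). Classical monocytes had 1 higher and 0 lower of 30 donor and 26 recipient genes, beside 2.85% and 1.71% of all genes higher, the acid sphingomyelinase gene Smpd1 in donor cells (1.03) and the S1P phosphatase gene Sgpp1 in recipient cells (1.25). Recipient T and NK cells had 0 past 2-fold of 31 and 30.

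The known regulators of S1pr1 did not all run with it. Klf2 was at 282, 290, 403 and 555 CPM in T cells of the 4 libraries, with ratios of 0.04 (-0.04 to 0.13) and 0.46 (0.40 to 0.53). In NK cells Klf2 was higher in the RvD1 library in both origins, by 0.52 and 0.30, whereas S1pr1 had opposite signs there. In neutrophils Klf2 was at 636, 775, 449 and 448 CPM, with ratios of 0.29 and -0.003, beside S1pr1 ratios of -2.32 and -2.0. Cd69 was lower in the RvD1 library in T cells of both origins, at 61.5 and 48.8 CPM in donor and 64.4 and 47.6 in recipient cells (-0.33 and -0.44). In nonclassical monocytes Cd69 was at 17.4, 3.89, 14.7 and 4.19 CPM.

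Levels over 27 class and library points of at least 100 cells were used to find the genes most like each of the 5, by Pearson correlation of log2(CPM + 1) over 10318 genes. The points share libraries and classes, so the values are a description. S1pr1 was most like Satb1 (0.956), a T cell chromatin organiser gene, followed by Rph3al, Casc4, Nxpe3 and Ablim1. S1pr2 was most like Dhrs7 (0.956), Ppp1r3b, Cnnm2, Arap3 and Selenon. S1pr4 was most like Fryl (0.977), Nipal3, Gmcl1, Pou6f1 and the lymphoid factor gene Ets1 (0.965). S1pr5 was most like Vegfc (0.950), Nrarp, Spn, Ppp2r5c and Fam234a, and Spn was also one of the markers used to name nonclassical monocytes. Sphk1 was most like Flrt3 (0.955), Dab2, Cd209a, Spint1 and Clec10a, and Cd209a and Clec10a were also DC markers. Within the set, S1pr1 and S1pr4 ran together (0.868), S1pr4 and Sphk1 ran apart (-0.632), and S1pr1 and Klf2 had a coefficient of 0.254.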

How the data were processed

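CD45+ leukocytes were measured with 10x 3′ version 3 chemistry in 4 libraries, 1 per group. The authors deposited a matrix of raw UMI counts (genes by cells), made with Cell Ranger 6.1.1 (vehicle) or 7.0.1 (RvD1), per the file headers. The genome was mm10 and Seurat 4.0.0 was used, per the submitters' processing notes. No source used here says whether intronic reads were counted; the newer version counts them by default and the older does not.

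Barcodes under 200 detected genes or over 10% mitochondrial UMIs were dropped, and doublets called by Scrublet in each library (0.8% per 1000 cells) were removed. All libraries were clustered together without integration (scanpy 1.11.5, leidenalg 0.10.2, 30 components, 15 neighbours, resolution 1, 4059 variable genes), with the 5 genes and their pathway left out. Clusters were named when at least 3 markers were detected and 1 class led, by a rule settled after clusters were seen. A DC cluster mixes migratory and other DC markers.

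UMIs were summed by class and library and given as CPM with exact 95% Poisson intervals. Ratios have exact binomial intervals and no pseudocount. A gene at 0 UMIs was set to 3 counts. Shares of cells used Clopper-Pearson intervals, also after thinning to 2000 UMIs. These intervals cover counting error only. On simulated independent Poisson counts, the intervals held the true ratio for 95.3% to 96.0% of genes in the 8 comparisons simulated. The simulation used the counting model that the intervals assume, so it cannot show whether they hold where UMIs gather in few cells. In RvD1 donor DCs, for example, 53.3% of the S1pr1 UMIs came from 1 cell. With 1 library per group no test was made.

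All 5 genes were named in every class that could be described. Of each pathway list, up to 3 genes with the largest mean absolute ratio, and genes past 2-fold, were given. The 5 most correlated genes with at least 500 UMIs were named for each. The genes and lists were chosen with earlier results of these data known. Klf2, Ccr7, Cd69, Cd27, Klrg1 and Zeb2 were chosen for splits after values were seen. One further gene is not reported here. Alternatives covered scaling, cell filter, doublets, clustering, marker gates, weighting, thinning and count minimum. Leaving out clusters 4, 15 or 24, or cells with T cell, B cell or endothelial transcripts, was chosen after seeing the data.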

Additional observations from a re-analysis of the deposited data

Results flagged for a closer look

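S1pr1 in T cells stood on opposite sides of 0 in the 2 origins: the RvD1 over vehicle log2 ratio was -0.34 in donor and 0.25 in recipient cells. The same held in NK cells, with -1.22 in donor and 0.44 in recipient cells. These were singled out because the pairs of libraries moved in opposite directions. With 1 library per group the difference between origins was not tested in either class. Median UMIs per T cell were lower with RvD1 in both origins, at 9388 and 8024 in vehicle and RvD1 donor libraries. In the recipient libraries they were 8857 and 7472.5. Naive-like CD4 cells were 159 of 933 and 77 of 810 T cells in vehicle and RvD1 donor libraries. In the recipient libraries they were 306 of 789 and 820 of 1808. Within T cell clusters the donor ratio ran from -0.52 in gamma-delta to 0.07 in naive-like CD8 cells. The recipient ratio ran from -0.07 in regulatory to 0.30 in naive-like CD8 cells. The parts of depth and of cluster make-up were not tested. In NK cells the 10 T cell markers summed to 755 and 640 CPM in vehicle and RvD1 donor and 721 and 1010 CPM in vehicle and RvD1 recipient libraries, with the same opposite signs as S1pr1. Within cluster 2, where Cd3e was at 0.858 to 2.61 CPM, the S1pr1 ratios were -1.20 and 0.43.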

How the results depend on the processing

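No paired analysis was possible because each group had 1 library. Of 552 ratios of the 5 genes recomputed under alternatives, 523 lay within their main interval, 24 moved outside it and 5 reversed. A reversal was counted only where the main interval excluded 0. Ratios whose main interval includes 0 could thus change sign within the 523. The RvD1 over vehicle ratio of S1pr4 in recipient B cells, for example, ran from -0.075 to 0.054. Of 1075 levels 94 moved, and of 405 shares of cells 176 moved, most of them when the thinning was changed or left out. With a minimum of 200 UMIs, 10 of 13 shares of all genes past 2-fold in either direction moved, from a range of 2.06% to 10.1% to one of 0.713% to 6.96%. S1pr1 in T cells was -0.23 in donor cells with the median of all genes set to 0, -0.23 without mitochondrial and ribosomal genes in the total, and 0.33 in recipient cells with the median set to 0. S1pr1 in donor NK cells was -0.73 with doublets kept, and in donor neutrophils -2.99 with marker gates. In donor DCs S1pr1 was -1.63 with marker gates and -1.48 as a mean over cells. S1pr4 reversed in T cells, recipient over donor with vehicle, to 0.012 with the median set to 0 and to 0.039 without mitochondrial and ribosomal genes. S1pr4 also reversed in neutrophils, recipient over donor with vehicle, to 0.70 under the strict cell filter, 0.70 with each library clustered alone and 0.004 as a mean over cells. The cause was not tested. Pairs at least 2-fold lower in the RvD1 donor library numbered 8 with a minimum of 20 UMIs and 1 with 200, against 5, and in the recipient library 4 with 20 UMIs, against 1. Pairs at least 2-fold higher in the RvD1 recipient library numbered 1 with each library clustered alone, against 0. All 5 lists of most correlated genes moved with a minimum of 50 cells. S1pr1 in neutrophils ranged from -2.99 to -2.17 in donor and from -2.23 to -1.61 in recipient cells over its alternatives. Depth limits Sphk1 outside DCs and classical monocytes, and S1pr2 in lymphocytes.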

Other observations

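The unnamed cluster 26, led by Xcl1, held S1pr4 at 59.9 CPM in 44 cells of vehicle donor lungs and 46.5 CPM in 23 of RvD1 donor lungs, with 1 S1pr1 UMI in each. The unnamed cluster 17, led by endothelial and airway genes although the cells were sorted as CD45+, held S1pr1 at 558 and 300 CPM in donor libraries with vehicle and RvD1 (57 and 115 cells), and at 496 and 366 CPM in the recipient libraries (49 and 176 cells).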
